A study of Mus musculus with 2 samples.

Results

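The dystrophin complex and the neuronal nitric oxide synthase bound to it were followed in regenerating mouse muscle through 8 genes, Dmd, Utrn, Dag1, Sgca, Sgcb, Sgcd, Sspn and Nos1. They were chosen by symbol, as named proteins of the complex, among 19938 genes with a probe set of their own, and each of the 8 had 1 such probe set. The pool labelled Mef2a knockout (Mef2a -/-) was set against the wild type pool (Mef2a +/+). Each was 1 array of RNA pooled from the tibialis anterior muscles of 5 mice of mixed 129Sv/C57BL6 background and both sexes. All mice were 2 to 4 months old, and the injected muscle was taken 7 days after 50 µl of 10 µM cardiotoxin, a venom peptide that destroys muscle fibres and spares the stem cells that rebuild them. MEF2A is a transcription factor of muscle genes.

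With 1 pooled sample per genotype there was no spread between samples and no test. Every value below is a log2 RMA value, and every difference is the log2 value of the knockout-labelled pool minus that of the wild type pool. A gene was counted as higher or lower when it differed by at least 1.5-fold, a limit of size and not of error. Genes were counted if the higher of their values reached 4.40, the median of all values in the table, here called the floor. All 8 genes did so in both pools, as did 11787 genes in all in at least 1 pool. RMA values of different probe sets do not share a scale, so the level of a gene is compared with its own level on the other array. Exceptions are the floor, the sets of genes nearest in mean level and the trend on mean level, which do set levels of different probe sets side by side.

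In skeletal muscle the complex ties the actin cytoskeleton through the fibre membrane to laminin outside the cell. Dystrophin binds actin on the inside and dystroglycan at the membrane, and the sarcoglycans with sarcospan brace dystroglycan from the side. Syntrophins, dystrobrevins and the neuronal nitric oxide synthase sit on the inner face, where the synthase makes nitric oxide when the fibre contracts. Loss of dystrophin or of a sarcoglycan causes muscular dystrophy, and loss of dystrophin also strips the synthase from the membrane.

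The targeted transcript did not check the labels. Mef2a read 9.06 in the knockout-labelled pool and 8.92 in the wild type pool, and Mef2c and Mef2d differed by -0.08 and -0.05. Which exons the deletion removes is not stated in the labels, and probes outside them need not read lower. Fibre genes were present in both pools: the 30 mature fibre markers, such as Acta1 and Ckm, ran from 8.78 to 12.52 in the knockout-labelled pool and from 9.34 to 12.55 in the wild type pool. The pools also differed in macrophage markers, and in Xist, the X inactivation RNA of females, which read 8.03 in the knockout-labelled pool and 6.72 in wild type. The Y-linked genes Eif2s3y, Uty and Kdm5d differed by -0.31, 0.06 and -0.01.

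The start regions of 4 of the genes are shown because their differences span the whole range among the 8: Nos1 and Sgca differed most, Utrn had equal values, and Dmd was the gene whose region held a MEF2 match. Each runs from 250 bases before to 50 after the RefSeq transcript start (GRCm38.p6), so that the start lies at base 251. Capitals mark the MEF2 site, the CArG box bound by serum response factor, and the E-box CANNTG bound by myogenic factors, searched on both strands. The Nos1 region is chr5:117866589-117866888 (plus strand), that of Sgca chr11:94976278-94976577 (minus), that of Dmd chrX:82948620-82948919 (plus) and that of Utrn chr10:12861686-12861985 (minus).
Nos1: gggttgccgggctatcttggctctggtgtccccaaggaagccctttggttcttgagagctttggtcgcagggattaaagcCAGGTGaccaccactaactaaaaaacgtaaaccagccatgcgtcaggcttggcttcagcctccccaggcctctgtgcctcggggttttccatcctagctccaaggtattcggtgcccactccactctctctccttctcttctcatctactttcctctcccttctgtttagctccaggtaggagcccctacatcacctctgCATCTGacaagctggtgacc
Sgca: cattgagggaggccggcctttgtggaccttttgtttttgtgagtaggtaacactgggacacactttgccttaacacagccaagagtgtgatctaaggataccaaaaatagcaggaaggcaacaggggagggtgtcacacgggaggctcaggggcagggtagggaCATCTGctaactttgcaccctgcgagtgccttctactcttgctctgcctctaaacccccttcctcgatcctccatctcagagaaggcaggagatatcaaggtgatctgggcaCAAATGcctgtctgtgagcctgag
Dmd: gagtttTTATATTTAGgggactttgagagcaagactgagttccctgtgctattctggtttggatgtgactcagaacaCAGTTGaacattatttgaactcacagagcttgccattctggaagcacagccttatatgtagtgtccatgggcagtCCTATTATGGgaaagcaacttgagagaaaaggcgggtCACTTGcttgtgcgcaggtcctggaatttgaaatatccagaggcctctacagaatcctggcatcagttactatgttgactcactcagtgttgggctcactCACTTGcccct
Utrn: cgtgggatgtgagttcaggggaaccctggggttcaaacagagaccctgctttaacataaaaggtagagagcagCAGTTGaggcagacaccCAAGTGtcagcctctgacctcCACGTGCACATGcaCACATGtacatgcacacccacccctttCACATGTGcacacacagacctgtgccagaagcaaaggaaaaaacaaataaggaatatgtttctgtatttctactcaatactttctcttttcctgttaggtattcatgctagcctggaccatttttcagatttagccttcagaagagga

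All 8 genes had at least 1 RefSeq start region, 11 in all. The MEF2 consensus occurred in 1 of the 11, the Dmd region shown, as TTATATTTAG at bases 7 to 16. Of 32851 start regions of the same length in the RefSeq table, 3.19% held it. The same Dmd region held the only CArG box among the 11, CCTATTATGG at bases 153 to 162, a motif found in 1.63% of all regions. The E-box CANNTG was found in 8 of the 11 regions, a share close to the 72.3% of all regions, and for 7 of the 8 genes, Sgcb being the exception. Nos1 had CAGGTG at bases 81 to 86 and CATCTG at bases 281 to 286, and Sgca had CATCTG at bases 165 to 170 and CAAATG at bases 277 to 282. Utrn had 7 E-boxes, of which the last 2, CACATG and CATGTG, overlap. These matches describe the letters of the windows and were not set against binding data. Nos1 is transcribed from several alternative first exons, of which the table gives 1 start.

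Nos1, the neuronal nitric oxide synthase, had the largest difference of the 8 genes. It read 5.24 in the knockout-labelled pool and 6.57 in the wild type pool, a difference of -1.33 or 2.52-fold lower. Both values lay above the floor. Of the 8 genes it was the only one past 1.5-fold, and it was also past 2-fold. Past 1.5-fold, 1.90% of all 11787 genes at the floor were lower and 6.45% higher. Past 2-fold the shares were 0.187% and 1.70%. The Nos1 difference ranked 4 from the lowest of these 11787, and it was larger in size than that of each of the 500 genes nearest to it in mean level. In whole muscle RNA a lower value cannot be told apart as fewer cells or fibres with the transcript or less transcript in each.

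**Figure D1:**
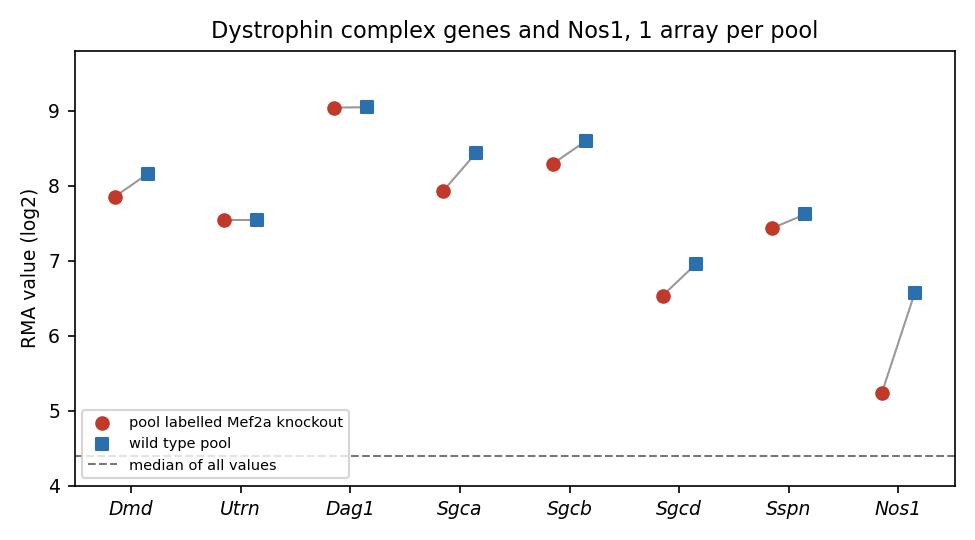
Log2 RMA value of each of the 8 genes in the pool labelled Mef2a knockout (red circles, left) and the wild type pool (blue squares, right), 1 array each, with the floor as a dashed line. The line joining the pools is steep for Nos1 (5.24 in the knockout-labelled and 6.57 in the wild type pool), shallow for the sarcoglycans and Dmd, and flat for Utrn and Dag1.

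The genes of the link between actin and laminin did not differ alike. Dmd, which encodes dystrophin, read 7.85 in the knockout-labelled pool and 8.16 in the wild type pool, a difference of -0.31. Utrn, which encodes utrophin, the dystrophin relative of young fibres, junctions and vessels, read 7.54 in both. Its 2 deposited values are identical, as they are for 254 of the 11787 genes (2.15%), and the cause of such ties was not tested. Dag1, which encodes both dystroglycan chains, the laminin receptor of the complex, read 9.04 in the knockout-labelled pool and 9.05 in the wild type pool. The Dmd difference was thus lower than those of Utrn and Dag1 by 0.31 and 0.30 log2 units, with no estimate of the error of that gap.

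The 3 sarcoglycan genes among the 8, and Sspn, were lower in the knockout-labelled pool, each by less than 1.5-fold, except that Sspn lay at 0.00 when centred on the mature fibre genes. Sgca, the muscle-restricted alpha-sarcoglycan, read 7.93 in the knockout-labelled pool and 8.44 in the wild type pool, which is 1.42-fold lower. Sgcd, the delta-sarcoglycan shared with smooth muscle, read 6.54 in the knockout-labelled pool and 6.95 in the wild type pool, 1.33-fold lower. Sgcb, the beta-sarcoglycan that forms the core of the complex with delta, read 8.30 in the knockout-labelled pool and 8.60 in the wild type pool, 1.23-fold lower. Sspn, the tetraspanin-like sarcospan, read 7.43 in the knockout-labelled pool and 7.62 in the wild type pool, 1.14-fold lower. Of all genes at the floor, 3.11% were as low as Sgca or lower, 5.91% as low as Sgcd, 11.3% as low as Sgcb and 21.8% as low as Sspn. For Dmd the share was 11.2%. Of the 500 genes nearest in mean level to each, 88.2% differed less in size than Sgca and 85.2% less than Sgcd. These shares were 69% for Sgcb, 47.4% for Sspn and 71% for Dmd.

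Over the 8 genes the median difference was -0.30, beside 0.03 over all genes at the floor. Differences below 0 were found for 7 of the 8 (6 when centred on the median of all genes, 8 with a loess trend on mean level removed, 5 when centred on the median of the 30 mature fibre genes), and 44.5% of all genes at the floor lay below 0. Without Nos1 the median of the other 7 was still -0.30. Of these 7, 0 passed 1.5-fold, beside 1.90% of all genes at the floor lower and 6.45% higher. At a smaller limit of 0.32 log2 units, 3 of the 8 (Nos1, Sgca and Sgcd) were lower and 0 higher, while 10.3% of all genes at the floor were lower by that much.

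**Figure D2:**
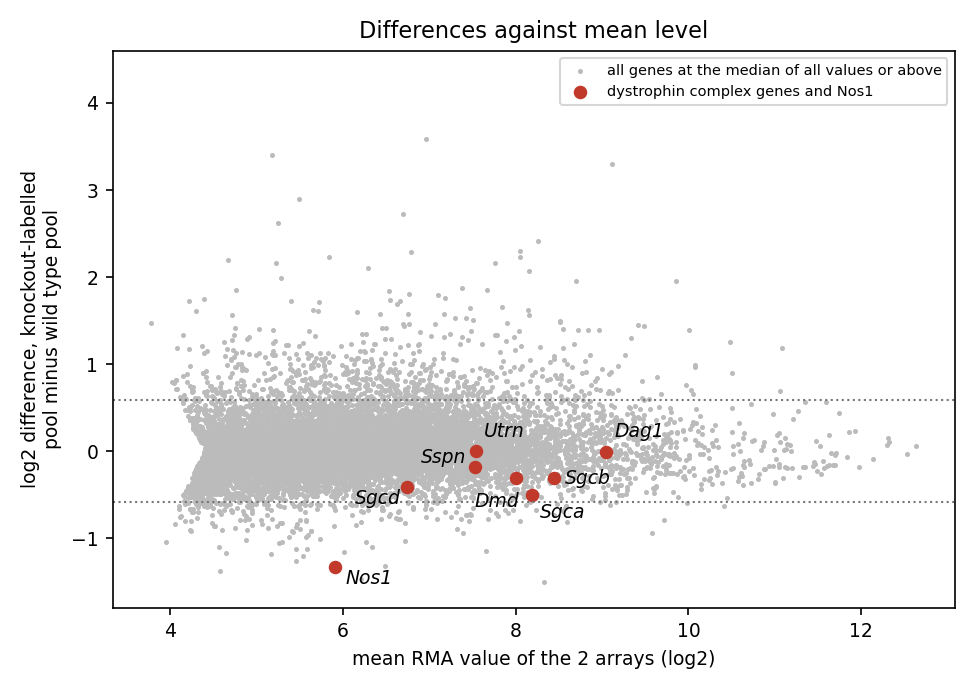
Log2 difference (knockout-labelled pool minus wild type pool) against the mean log2 RMA value of both arrays, for all genes at the floor (grey) and the 8 genes (red, named), with dotted lines at 1.5-fold. Nos1 lies below the lower line at -1.33, and the other 7 genes lie between the lines, from -0.51 to 0.00.

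Among markers of the cells in the muscle, those of macrophages differed most. Mature fibre markers lay mostly below 0, with 1 of the 30 past 1.5-fold, and satellite cell markers differed in both directions. Of the 30 mature fibre genes, 28 were below 0, with a median of -0.19 and a range from -0.62 to 0.07. All 16 measured macrophage genes lay above 0, with a median of 1.06. Of them, 15 were at least 1.5-fold higher, beside 6.45% of all genes at the floor. The 16 genes ran from 5.26 to 11.67 in the knockout-labelled pool and from 4.85 to 10.49 in the wild type pool. No mature fibre or macrophage marker lay below the floor in both pools. Msr1, a scavenger receptor, and Itgam, an integrin chain of myeloid cells, were 4.31-fold and 3.48-fold higher. Of 7 satellite cell genes measured, 6 reached the floor, with a median of -0.21, 4 of them below 0 and 2 above. Chodl was the only satellite cell gene past 1.5-fold, where 1.90% of all genes at the floor were that much lower. It read 4.95 in the knockout-labelled pool and 5.86 in the wild type pool, 1.88-fold lower. The part of these shifts in the values of the 8 genes was not tested. The lists of 5 other cell types lay near 0. Their medians at the floor were 0.03 for fibroblasts, 0.03 for endothelium, -0.01 for smooth muscle, -0.01 for adipocytes and 0.07 for nerve and Schwann cells. In these 5 lists, Vwf of endothelium was the only gene past 1.5-fold higher and Lmod1 of smooth muscle the only one past it lower.

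Set beside the fibre genes, the 8 genes took different places. None of the 30 fibre genes differed as far below 0 as Nos1, and Nos1 lay 2.21-fold below their median difference. The gene with the lowest fibre difference was Myh2, the IIa myosin of fast oxidative fibres, at -0.62. The fast myosin genes Myh4 and Myh1, of fibre types rich in the synthase, differed by -0.15 and -0.16. Sgca and Sgcd each had 2 of the 30 fibre genes below them, and Dmd and Sgcb had 8. Sspn lay in the middle, with 17 fibre genes below it. Utrn and Dag1 lay near the top, each with 28 of the 30 below it. Relative to the fibre median, 5 of the 8 genes stayed below 0, Sspn reached 0.00, and Dag1 and Utrn became 0.18 and 0.19. That scaling moved the median of all genes at the floor to 0.21.

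The genes of other proteins of the complex differed in both directions. Of 10 with a probe set of their own, 7 reached the floor, with a median difference of -0.08. Cav3, the muscle caveolin that binds dystroglycan at the membrane, was the 1 gene past 1.5-fold, where 1.90% of all genes at the floor were lower. It read 7.06 in the knockout-labelled pool and 7.79 in the wild type pool, 1.66-fold lower, or -0.54 and under the limit relative to the fibre median. Dtna, which encodes alpha-dystrobrevin, differed by -0.41, while Dtnb, its beta relative, and Drp2, a dystrophin-related protein of nerve sheaths, differed by -0.08 and -0.09. The syntrophin genes Sntb1 and Sntb2, whose proteins anchor signalling molecules to dystrophin, differed by 0.14 and 0.25. Sgce, the epsilon-sarcoglycan found outside muscle fibres too, differed by 0.30, the opposite way from Sgca. Sgcz, Sntg1 and Sntg2 were below the floor in both pools.

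Outside the cell, 11 genes of dystroglycan ligands and laminin chains were measured and 10 reached the floor. Of these, 0 passed 1.5-fold in either direction, beside 1.90% of all genes at the floor lower and 6.45% higher. The median of the 10 was -0.08. Bgn, the proteoglycan biglycan that binds sarcoglycans, was highest at 0.54, and Lamb2, a laminin chain of the endplate, lowest at -0.47. Lama2, the main laminin chain around adult fibres, differed by -0.28. For the sugar chain by which dystroglycan holds laminin, 14 genes were measured and 13 reached the floor, other genes of that chain being not analysed here. Of the 13, 0 passed 1.5-fold, beside the same shares of all genes, and the median was 0.01. B3galnt2, a transferase of that chain, was lowest at -0.54, and Gmppb, which supplies its activated mannose, highest at 0.31.

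Of 14 other genes of the nitric oxide pathway at the floor, 0 passed 1.5-fold, and the median was 0.05. With 1.90% of all genes at the floor lower and 6.45% higher, a count of 0 among 14 is near the background. Nos3, the endothelial synthase, read 5.20 in the knockout-labelled pool and 5.33 in the wild type pool. Nos2, the inducible synthase, lay below the floor at 3.95 in the knockout-labelled pool and 4.32 in the wild type pool. Dynll1, a light chain that binds the neuronal synthase, was highest at 0.41, and Pfkm, the muscle phosphofructokinase, which also binds it, lowest at -0.36. The guanylate cyclase subunits that sense nitric oxide differed by -0.23 (Gucy1a1), 0.22 (Gucy1b1) and 0.15 (Gucy1a2).

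The genes grouped as cytoskeletal links had a median of -0.03 over 16 at the floor. Past 1.5-fold, 1 was lower and 0 higher, beside 1.90% and 6.45% of all genes at the floor. Ctnna3, an alpha catenin, read 4.57 in the knockout-labelled pool and 5.75 in the wild type pool, 2.27-fold lower. Its knockout-labelled value lay near the floor of 4.40. With a floor of 6.18, the 75th percentile of all values, Ctnna3 was not counted. Ank2, an ankyrin that helps to place dystrophin at the costamere, differed by -0.58, just inside the limit. Itga7 and Itgb1, the integrin pair that forms the parallel link to laminin, differed by -0.12 and 0.17. The 10 junction genes had a median of -0.30. Of them, 1 passed the limit, Musk, the agrin-responsive kinase, 1.54-fold lower, beside the same shares of all genes. The 11 young fibre genes had a median of -0.05, with Myh8, the perinatal myosin, 1.54-fold lower.

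Genes of membrane repair differed in both directions. Of 13 at the floor, 7 were above 0 and 6 below, with a median of 0.02. Past 1.5-fold, 4 were higher and 0 lower, beside 6.45% and 1.90% of all genes at the floor. Anxa1 read 10.21 in the knockout-labelled pool and 8.76 in the wild type pool (2.72-fold higher), and Myof, the myoferlin of fusing myoblasts, 8.63 in the knockout-labelled pool and 7.32 in the wild type pool (2.48-fold). Anxa5 and Anxa2 were 1.80-fold and 1.57-fold higher. Macrophage markers had a median of 1.06 in the same RNA, and their part in these values was not tested. Dysf, the dysferlin of the fibre membrane, and Trim72, a repair protein restricted to muscle, differed by -0.13 and -0.28.

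**Figure D3:**
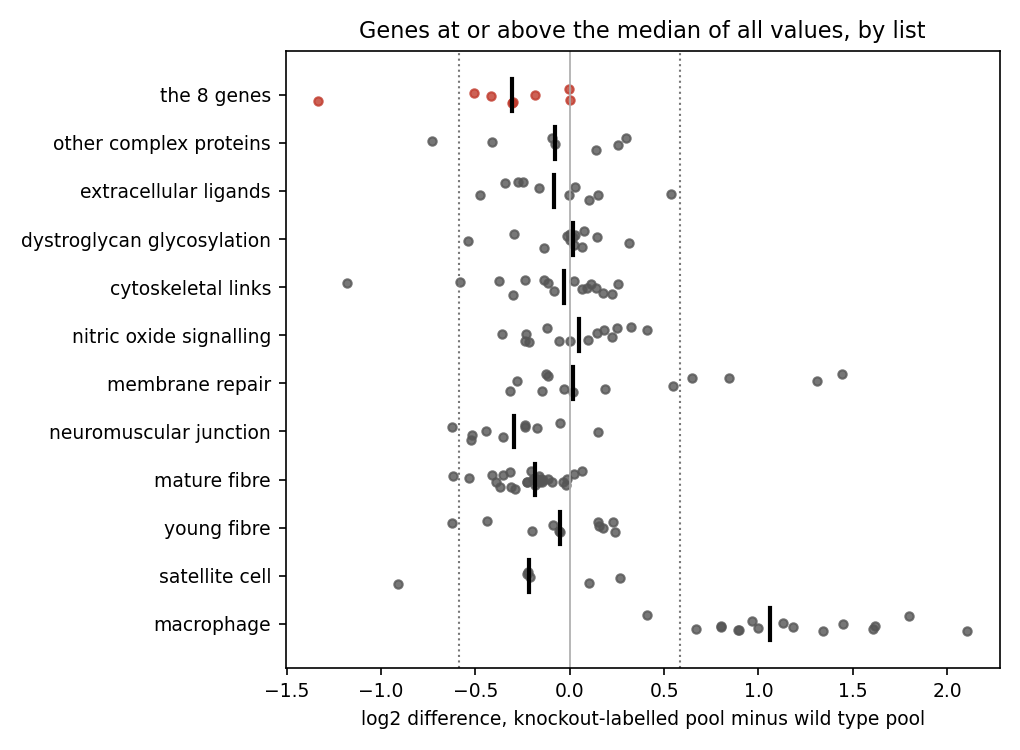
Log2 difference (knockout-labelled pool minus wild type pool) of each gene at the floor, by list, with the 8 genes in red at the top, the median of each list as a black bar and dotted lines at 1.5-fold. Nos1 at -1.33 is the lowest point, 1 cytoskeletal gene (Ctnna3) lies near it, and the macrophage genes lie at the right with a median of 1.06.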

How the data were processed

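RNA of tibialis anterior muscle was measured on 2 arrays, 1 per genotype, each a pool of 5 mice. The submitters' processing notes name RMA and Affymetrix Expression Console, without versions, and the deposited log2 values lie in the range that RMA gives. RMA sets both arrays to nearly the same distribution (sorted values differ by at most 0.139), so a shift shared by most genes cannot be seen. Of 35557 probe sets, 21789 have 1 gene symbol in the platform annotation, 1621 several and 12147 none. The single-symbol ones were used, and for the 999 genes with several of them the one of highest mean. Of them, 21698 matched the RefSeq gene table of GRCm38.p6. Differences and fold counts (1.5-fold, with a floor of 4.40) were computed with numpy 2.4.6 and pandas 2.3.3 under Python 3.11.15. The fold calls were run on simulated data only for added differences far past the limit, so calls near the limit were not checked. The number of arrays limits the precision, and no test between the pools was possible. The 8 genes and the lists were chosen with earlier results of these data known. Named in the lists were genes past the limit (at most 4), or else the largest difference in each direction. No gene was named for fibroblasts, adipocytes or nerve and Schwann cells. Genes beside those named by this rule were chosen after their values were seen or to show a list in full. The planned naming of genes near Nos1 and Sgca in both values was left out, since levels of different probe sets share no scale. Alternatives were other centrings, a loess trend (statsmodels 0.14.6, span 0.3), other floors, other fold limits and other ways of handling several probe sets.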

Additional observations from a re-analysis of the deposited data

Results flagged for a closer look

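Ass1 makes the precursor from which arginine, the substrate of nitric oxide synthases, is renewed. It entered no comparison above because its 2 probe sets are annotated to Gm5424 as well. They read 6.47 and 6.38 in the knockout-labelled pool, against 5.11 and 5.08 in the wild type pool, differences of 1.36 and 1.31. These values stood out as a signal above the wild type pool in probe sets left out of the comparison, and the 2 genes cannot be told apart in them. Macrophage markers had a median of 1.06 in the same RNA, and their part in these values was not tested.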

How the results depend on the processing

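Nos1 was past 1.5-fold under every centring tried, with differences from -1.37 (loess trend removed) to -1.15 (relative to the fibre median). No other of the 8 genes passed that limit under them. The probe set rules left all 8 values unchanged and are no check on them. Each gene had 1 probe set of its own, so averaging could not move its value. At a limit of 0.32 log2 units, 3 of the 8 were lower, beside 10.3% of all genes at the floor. The median of the 8 was -0.12 relative to the fibre median. Dag1 turned to 0.025 with median centring and 0.18 relative to the fibre median, where Sspn was at 0.0022. Relative to the fibre median, 1476 of all genes at the floor were at least 1.5-fold higher and 74 lower, against 760 and 224 as deposited. With no floor 618 genes were lower, and 94 with a floor at the 75th percentile.

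Counts in the other lists rest on few genes. Relative to the fibre median, the other complex proteins had 0 lower, and ligands and nitric oxide genes had 1 higher each. With the loess trend removed, 1 glycosylation gene and 2 cytoskeletal genes were lower, and 0 cytoskeletal genes when the floor was the 75th percentile. With shared probe sets allowed, 1 nitric oxide gene (Ass1) was higher. At 2-fold, 0 other complex proteins were lower and 2 repair genes higher. At 0.32 log2 units, the lower genes numbered 2 among the other complex proteins, 1 in glycosylation, 2 among the ligands, 1 in nitric oxide signalling and 3 among cytoskeletal links, and 1 ligand and 2 nitric oxide genes were higher. No paired analysis was possible because each genotype had 1 array.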
